A study of Mus musculus with 2 samples.

Results

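Apoe, Clu and Apod are the 3 genes followed here, chosen by their symbols in the deposited gene annotation out of 32285 genes; all 3 were found in both libraries. They encode the main apolipoproteins that brain cells make for themselves. Both libraries came from APP-KI mice, which carry a knock-in of the amyloid precursor protein gene and model Alzheimer's disease, aged 6 months, and held cells freed from whole brain with an adult brain dissociation kit. One library was Fit2-WT and the other Fit2-Mut, a disruption of Fit2 that the series' design text places in macrophages, and Fit2 (gene symbol Fitm2) encodes an endoplasmic reticulum protein of lipid droplet formation. The labels used here give neither the deleted part, the Cre driver, the sex nor the number of animals, and with 1 library per genotype no difference between genotypes could be tested against replicates; intervals below are 95% intervals of counting error only.

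Apolipoproteins are the protein part of lipoproteins, the particles that carry cholesterol and phospholipids between cells. ApoE, the ligand of the LDL receptor family, is loaded with lipid by the transporter ABCA1 and is known in brain as a product of astrocytes and of activated microglia, in particular those around amyloid plaques. Clusterin, also called apolipoprotein J, is a secreted chaperone that binds misfolded proteins and is made by astroglia, ependyma and choroid plexus. Apolipoprotein D is a lipocalin, a small carrier of hydrophobic molecules unrelated to the other two in fold, and is known from oligodendrocytes and the meninges.

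In GRCm38, Apoe (ENSMUSG00000002985) lies on the minus strand of chr7:19696109-19699188 with 4 exons, Clu (ENSMUSG00000022037) on the plus strand of chr14:65968483-65981547 with 9 exons, and Apod (ENSMUSG00000022548) on the minus strand of chr16:31296192-31314808 with 6 exons. The 250 bases before the start of Apoe (chr7:19699189-19699438) and of Apod (chr16:31314809-31315058) are shown in the direction of transcription, from the RefSeq table on GRCm38.p6 used here, which gave windows for these 2 of the 3 genes; Clu is not shown. They show what precedes the start of genes that the data below find in different cells.
Apoe: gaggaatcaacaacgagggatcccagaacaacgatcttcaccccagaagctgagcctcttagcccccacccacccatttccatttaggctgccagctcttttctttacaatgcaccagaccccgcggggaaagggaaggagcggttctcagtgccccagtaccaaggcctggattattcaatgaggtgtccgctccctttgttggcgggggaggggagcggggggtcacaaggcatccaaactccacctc
Apod: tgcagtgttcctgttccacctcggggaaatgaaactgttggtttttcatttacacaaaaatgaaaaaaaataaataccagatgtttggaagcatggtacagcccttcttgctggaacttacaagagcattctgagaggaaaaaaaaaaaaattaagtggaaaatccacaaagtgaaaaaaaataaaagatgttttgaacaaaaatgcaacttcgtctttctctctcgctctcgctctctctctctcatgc
The windows differed in base composition, with 57.2% G and C and 8 CG dinucleotides for Apoe against 36.4% and 4 for Apod. Among 32851 such windows the median was 52.4%, and the quartiles were 45.2% and 61.2%. A search of both strands found none of 6 short motifs in either window. These were TATAAA, present in 12.4% of all windows, GGGCGG in 32.7%, AGGTCA in 14.02%, TGANTCA in 6.75%, CACGTG in 6.02% and GAANNTTC in 6.69%. Further Apoe windows that lie inside the gene are not shown. Of these, the window at chr7:19698622-19698871 holds TATAAA, from 96 to 91 bases before its start.

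The Fit2-WT library held 5197 cells with a median of 6808 UMIs and the Fit2-Mut library 5821 cells with a median of 7376 UMIs, after 136 and 158 called doublets were removed; 10 barcodes occurred in both libraries. Cells fell into 28 clusters, formed without the 3 genes, and 15 types were named from marker lists, with "-like" marking a name that rests on markers. Neurons were nearly absent, at 23 and 37 neuron-like cells, so neuronal levels are poorly covered. Fitm2 itself had 301 UMIs (6.97 CPM) in Fit2-WT and 352 (6.71 CPM) in Fit2-Mut over all cells, where CPM is UMIs of a gene per 1000000 UMIs of the cells named. Within microglia-like cells the count was 16 UMIs for Fit2-WT and 1 for Fit2-Mut; the chemistry reads 3' ends, so this checks the label only if the deletion removes or destabilises that end. All levels below are in CPM, and where a pair of values carries no label the Fit2-WT value comes first. Free RNA was read from barcodes with 10 to 100 UMIs, where Apoe stood at 5594 CPM in Fit2-WT and 6141 CPM in Fit2-Mut, Clu at 803 and 845 CPM, and Apod at 600 and 901 CPM.

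The 3 apolipoproteins were spread over brain cells in 3 different ways. Taken by type, Apoe was highest in microglia-like cells and border-associated macrophage-like cells, then in astroglia. Clu was highest in ependymal-like, choroid plexus-like and astroglial cells, and Apod was highest in oligodendrocyte-like and fibroblast-like cells. Across the 15 named types, Pearson correlation of log2(CPM + 10) was 0.22 between Apoe and Clu, 0.15 between Clu and Apod, and 0.0089 between Apoe and Apod. These are descriptions over types of the same libraries, which share depth and free RNA.

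**Figure D1:**
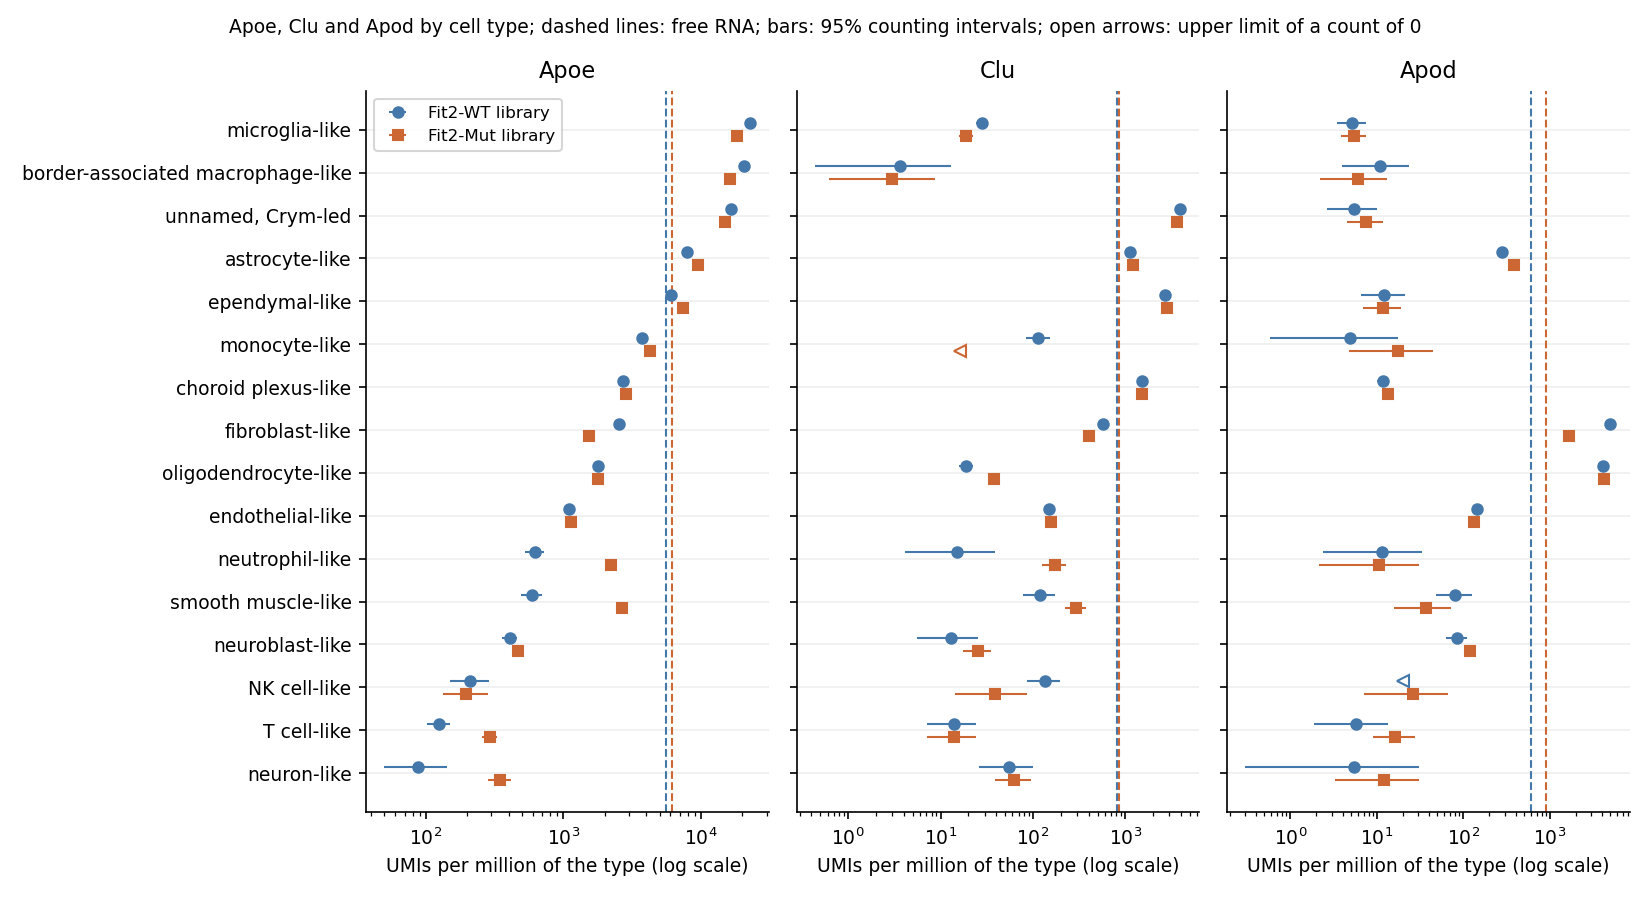
Level of Apoe, Clu and Apod (CPM, log axis) in the 15 named types and in the unnamed cluster led by Crym, for both libraries; bars are 95% intervals of counting error, dashed lines are free RNA, and open arrows are upper limits for a count of 0. Apoe passed its free RNA line in microglia-like, macrophage-like, astroglial and ependymal-like cells, and Apod did so in oligodendrocyte-like and fibroblast-like cells of both libraries.

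Among the named types, Apoe was at its highest in the 2 macrophage classes of the brain. In microglia-like cells (544 in Fit2-WT, 564 in Fit2-Mut) it had 128812 UMIs, or 22875 CPM, in Fit2-WT and 128082 UMIs, or 18328 CPM, in Fit2-Mut. It ranked second among all genes of these cells in both libraries, and microglia-like cells supplied 45.8% and 37.5% of all Apoe UMIs from 13.1% and 13.3% of all UMIs. Border-associated macrophage-like cells, which sit in meninges and perivascular spaces, had 20466 CPM in 53 Fit2-WT cells and 16180 CPM in 59 Fit2-Mut cells. That class was uneven: 5 cells held 52.2% and 40.2% of its Apoe UMIs, and the median cell stood at 980 and 8056 CPM, the opposite order to the sums. Without the 10 highest cells per library its levels were 7409 and 8983 CPM. Its cluster met 7 of 7 markers of its own list, but also 8 of 8 microglia and 6 of 6 cycling markers. A small astrocyte-like cluster led by Npy and Frzb, described below, stood above this class in both libraries. It was uneven too, at 7718 and 13550.5 CPM without its 10 highest cells per library.

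Astroglial cells came next. An unnamed cluster led by Crym and Hapln1, in which all 8 astrocyte markers were detected, had 16665 CPM of Apoe in 259 Fit2-WT cells and 15082 CPM in 291 Fit2-Mut cells. It stayed unnamed because Crym, a marker of another list, was among its 10 leading genes and no astrocyte marker was. Astrocyte-like cells had 34465 Apoe UMIs, or 7869 CPM, in 968 Fit2-WT cells and 61090 UMIs, or 9535 CPM, in 1214 Fit2-Mut cells. Ependymal-like cells, the ciliated lining of the ventricles, had 6080 CPM in 104 cells and 7454 CPM in 135 cells. Each of these levels exceeded the free RNA of its own library.

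Below these, Apoe in every named type was under the free RNA level of its library. Monocyte-like cells had 3715 and 4248 CPM, choroid plexus-like cells 2706 and 2846 CPM, fibroblast-like cells 2542 and 1547 CPM, oligodendrocyte-like cells 1794 and 1794 CPM, and endothelial-like cells 1093 and 1130 CPM. The first 6 places, from microglia-like down to choroid plexus-like cells, were in the same order in both libraries. Lower places changed between libraries. Fibroblast-like cells stood above oligodendrocyte-like cells in Fit2-WT and below them in Fit2-Mut, smooth muscle-like cells went from 589 to 2648 CPM, and neutrophil-like cells from 621 to 2201 CPM. In smooth muscle-like cells 5 cells held 84.2% and 92.7% of the Apoe UMIs, and without them the levels were 113 and 267 CPM. Neutrophil-like cells were similar, with 69.3% and 80.0% in 5 cells and 217 and 644 CPM without them.

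A level below the free RNA does not by itself mean that a cell lacks the transcript, since a cell carries only a small share of free RNA. Genes of other types gave that share. In oligodendrocyte-like cells, the highest of them implied up to 271 CPM of Apoe from free RNA in Fit2-WT and 364 CPM in Fit2-Mut, against 1794 CPM measured in each. Choroid plexus-like cells had 2706 and 2846 CPM against an implied 104 and 159 CPM. T cell-like cells had 124 and 292 CPM against up to 1089 and 1518 CPM implied by C1qa, but 81.7 and 165 CPM implied by the median of the genes used, so expression and background cannot be told apart there.

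Among named types Clu was highest in ependymal-like cells (2666 CPM for Fit2-WT, 2844 CPM for Fit2-Mut), and the unnamed Crym-led cluster was higher still at 3915 and 3659 CPM. Choroid plexus-like cells, the secretory epithelium that makes cerebrospinal fluid, had 25444 UMIs (1514 CPM) in 1442 Fit2-WT cells and 25151 UMIs (1515 CPM) in 1495 Fit2-Mut cells. They were the largest source in these suspensions, with 61.4% and 53.5% of all Clu UMIs from 39.0% and 31.6% of all UMIs. Astrocyte-like cells followed at 1113 and 1198 CPM, then fibroblast-like cells at 576 and 406 CPM. These 4 named types held the same order in both libraries.

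Clu in oligodendrocyte-like cells was 18.8 and 37.9 CPM, and in microglia-like cells 28.2 and 18.8 CPM. Both lay under the most that free RNA could give by the same reckoning, which was 38.8 and 50.1 CPM in oligodendrocyte-like cells and 70.9 and 57.2 CPM in microglia-like cells. Monocyte-like cells had 47 Clu UMIs in the Fit2-WT library and 0 in the Fit2-Mut library, where only 41 cells were present and a count of 0 allows up to 16.1 CPM. Expression of Clu by these cells cannot be read from such levels.

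Apod was carried by oligodendrocyte-like cells, the myelin-forming cells, which held 87.3% (Fit2-WT) and 90.6% (Fit2-Mut) of its UMIs. Their level was 4056 CPM (29620 UMIs, 735 cells) and 4190 CPM (43096 UMIs, 929 cells), and 96.5% and 97.2% of the cells had at least 1 UMI. In microglia-like cells, which should lack the gene, the share was 4.04% and 6.38% at median depths of 9592 and 11141 UMIs, beside 8922 and 9701 UMIs in the oligodendrocyte-like cells. After every cell was thinned to 1000 UMIs the shares were 86.8% and 88.2% in oligodendrocyte-like cells and 0.552% and 0.355% in microglia-like cells. Fibroblast-like cells had 4945 CPM in 59 Fit2-WT cells and 1654 CPM in 81 Fit2-Mut cells, so the first 2 places changed between libraries. Astrocyte-like cells had 280 and 383 CPM, endothelial-like cells 142 and 134 CPM, and choroid plexus-like cells 11.7 and 13.3 CPM. NK cell-like cells had 0 Apod UMIs in Fit2-WT, which allows up to 19.8 CPM by the exact Poisson interval. For Apoe and Apod the windows printed above thus belong to genes whose main sources were different cells.

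The genes whose levels ran most like Apoe over the 15 named types were Lacc1 (0.87), Lgmn, Bco2, Cyfip1 and Psap (0.81 each), among 13536 genes and as the mean correlation of both libraries. Lgmn encodes the lysosomal protease legumain and Psap the sphingolipid activator precursor prosaposin. For Clu they were Gstt1 (0.88), Tmem53 (0.87), Oplah (0.87), Igfbp2 (0.86) and Fxyd1 (0.85), of which Igfbp2 encodes a binding protein of insulin-like growth factors. For Apod they were Hhip (0.92), Gstm6 (0.91), Aspa (0.89), Adgrg6 (0.88) and Il33 (0.87), of which Aspa encodes the oligodendrocyte enzyme aspartoacylase. The partners of Apod depended on the measure: with Spearman correlation its highest was Golim4 (0.79) and none of these 5 was among its first 5, while Lacc1 (0.89) led for Apoe and Prelp (0.86) for Clu.

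Between genotypes, Apoe over all cells was level, at 6523 CPM in Fit2-WT and 6517 CPM in Fit2-Mut, a ratio of 0.999 (0.994 to 1.004). Clu was 960 and 897 CPM (ratio 0.934), and Apod 787 and 907 CPM (ratio 1.15). Sums over all cells mix types whose shares differed, so ratios were taken within types that had at least 100 cells in each library. Of 15 pairs of gene and type with at least 500 UMIs over both libraries, 2 were at least 25% higher in Fit2-Mut and 0 at least 20% lower, the same fold either way. The pairs were Apod in astrocyte-like cells and Clu in oligodendrocyte-like cells. The count of 0 is close to the limit, since Apoe in microglia-like cells (0.801 as reported) was at least 20% lower in 9 of 13 alternatives. The count of 2 depends on the processing too. Over its alternatives, Apoe in ependymal-like cells (1.226 as reported) ran from 1.191 with doublets kept to 1.421 with types set by marker share. In astrocyte-like cells (1.212 as reported) it ran from 0.992 to 1.266. The share of all genes with at least 500 UMIs past those limits, in either direction, was 1.37% in choroid plexus-like, 6.96% in astrocyte-like, 1.67% in oligodendrocyte-like, 4.15% in microglia-like and 3.62% in endothelial-like cells. It was 8.22% in ependymal-like cells, 8.10% in T cell-like cells, where no apolipoprotein had 500 UMIs, and 4.27% in the unnamed Crym-led cluster.

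**Figure D2:**
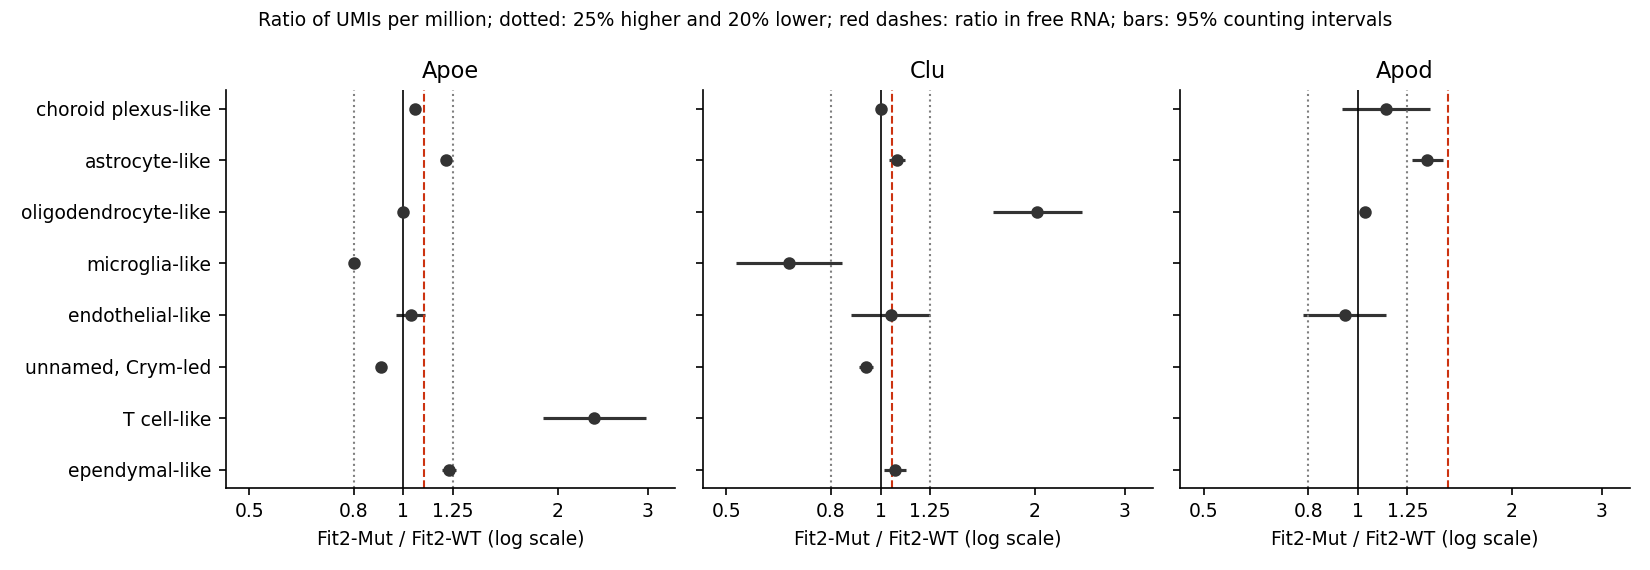
Ratio of Fit2-Mut over Fit2-WT (log axis) of each apolipoprotein in 8 groups of cells, for pairs with at least 100 UMIs; bars are 95% intervals of counting error, dotted lines mark 25% higher and 20% lower, and red dashes the ratio in free RNA. Apoe was below 1 in microglia-like cells (0.801) and above 1 in astrocyte-like (1.21) and ependymal-like cells (1.23), while choroid plexus-like Clu stood at 1.001.

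Apoe in microglia-like cells was lower in Fit2-Mut, at 18328 CPM against 22875 CPM, a ratio of 0.801 (0.795 to 0.808) and a log2 ratio of -0.32. This lay just short of 20% lower, and 29 of 3496 genes tested (0.830%) were as low or lower. The median cell had 12662 CPM in Fit2-WT and 8831 CPM in Fit2-Mut. The share of cells with at least 1 Apoe UMI was 90.3% and 92.9%, and 83.5% and 80.3% after thinning. Free RNA had the opposite order, at a ratio of 1.10.

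Apoe differed among the microglia-like clusters far more than between genotypes. The cluster led by Spp1 and Gpnmb (302 and 341 cells) had 27522 CPM in Fit2-WT and 21337 CPM in Fit2-Mut, a ratio of 0.775 (0.769 to 0.782). The cluster led by Gm38843 and Cox6a2 (140 and 118 cells) had 16682 and 14108 CPM, a ratio of 0.846. In the cluster led by Tmem119 and Gm10790 (102 and 105 cells) the levels were 2624 and 3959 CPM, a ratio of 1.51 (1.43 to 1.60). Both libraries therefore ranked the clusters alike, and the Spp1-led cluster held 88.7% and 90.1% of the Apoe UMIs of the class.

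The 3 clusters differed in known microglial states. P2ry12, a purinergic receptor of resting microglia, was at 1918 and 1734 CPM in the Tmem119-led cluster and 504 and 557 CPM in the Spp1-led one. Cst7, an inhibitor of lysosomal proteases and a mark of disease-associated microglia, was at 164 and 259 CPM in the Tmem119-led cluster and 2983 and 2793 CPM in the Spp1-led one. Cell by cell, thinned Apoe had a Spearman correlation with the summed disease-associated list of 0.53 in Fit2-WT (544 cells) and 0.53 in Fit2-Mut (564 cells), and with the homeostatic list of -0.41 and -0.39. Cells of a library share its free RNA, and clusters were drawn on these marker genes, so both are descriptions.

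**Figure D3:**
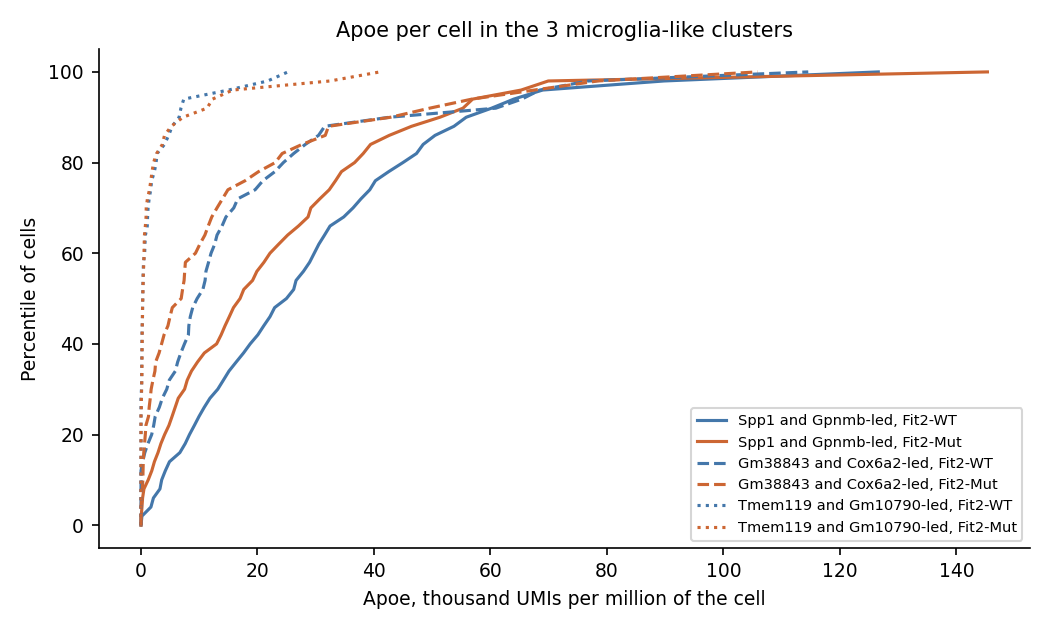
Percentile of cells (vertical axis) against Apoe per cell (horizontal axis, in units of 1000 CPM) in the 3 microglia-like clusters and both libraries. Over most of the Spp1-led cluster the Fit2-Mut line lies to the left of the Fit2-WT line, at lower Apoe (medians of 17010 and 24975 CPM), while the Tmem119-led lines lie close together at low Apoe until the last cells (medians of 303 and 297).

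The per-cell view separated the clusters with a broad difference from the one without. In the Spp1-led cluster the median cell had 24975 CPM in Fit2-WT and 17010 CPM in Fit2-Mut, and 5 cells held only 5.68% and 6.04% of its Apoe UMIs. Leaving out the 10 cells per library with the most Apoe UMIs gave 25815 and 19854 CPM, a ratio of 0.769. In the Tmem119-led cluster the median cell had 297 and 303 CPM, and 5 cells held 48.8% and 55.0% of the UMIs. Without the 10 highest cells its ratio was 1.09 (0.972 to 1.21), an interval that includes 1. The Gm38843-led cluster had 0.792 by the same step.

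Among genes of the Apoe pathway in microglia-like cells most stayed inside the limits of 25% higher and 20% lower. The lists below were chosen with earlier results of these data known. Abca1, the transporter that lipidates ApoE, was at 120 and 110 CPM, Lpl, lipoprotein lipase, at 663 and 670 CPM, and Pltp, a phospholipid transfer protein, at 7.99 and 14.6 CPM. Of 7 lipid loading genes with at least 20 UMIs, 1 was higher by at least 25% in Fit2-Mut and 0 were lower by at least 20%, with a median log2 ratio of 0.15 beside 0.06 over all genes. At that minimum of 20 UMIs, 16% of all genes in these cells were higher by as much and 7.49% lower. Among 11 lipoprotein receptor genes 3 were higher and 0 lower (median -0.03). The 3 were Lrp6 at 34.3 and 46.2 CPM, Sorl1 at 19.2 and 25.9 CPM and Cd36, a scavenger receptor, at 1.24 and 6.73 CPM (7 and 47 UMIs). More abundant members were nearer level, with the endocytic receptor Lrp1 at 213 and 206 CPM, the receptor chaperone Lrpap1 at 363 and 356 CPM, and Trem2, a microglial receptor that binds lipoproteins, at 5225 and 4876 CPM.

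Regulators and neighbours of Apoe gave small counts either way. Of 8 regulator genes 1 was higher and 0 lower (median 0.10), with Mylip, the ligase that degrades the LDL receptor, at 226 and 224 CPM. Of 5 other genes with apolipoprotein names 0 were higher and 2 lower (median -0.05). That list goes by gene name, which does not show that each member is part of lipoproteins. Apoc1, which lies beside Apoe and is co-regulated with it in macrophages, had 7.99 and 4.58 CPM (45 and 32 UMIs), a ratio of 0.573. Its interval (0.352 to 0.922) holds Apoe's 0.801. Apoc4 and Apoc2, also beside Apoe, lay on the other side of 1. Apoc4 had 70 and 103 UMIs, a ratio of 1.19 (0.867 to 1.63), and Apoc2 78 and 118 UMIs, a ratio of 1.22 (0.908 to 1.64). Apoo was at 15.3 and 11.7 CPM. Of 7 genes beside Apoe on its chromosome, 1 was higher and 1 lower (median 0.19), with Tomm40 at 40.7 and 43.8 CPM and Clptm1 at 61.6 and 70.3 CPM.

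The state lists held no member past the same limits, and Apoe itself, at a ratio of 0.801, was not past them either. Of 14 disease-associated microglia genes 0 were past them (median log2 ratio -0.07, all genes 0.06), with the adaptor Tyrobp at 8378 and 7731 CPM, the lysosomal protease Ctsd at 14257 and 14187 CPM, and the iron store Fth1 at 9025 and 8869 CPM. The lowest ratios of the list were near that of Apoe, at 0.830 (0.808 to 0.852) for Spp1 and 0.836 (0.814 to 0.859) for Cd63. The highest was 1.125 for Gpnmb. Clec7a was not analysed here. Of 10 homeostatic genes 0 were past them either (median 0.09), with the growth factor receptor Csf1r at 1128 and 1127 CPM. The Apoe log2 ratio of -0.32 stands beside these medians as a description of 2 libraries.

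In astrocyte-like cells Apoe was higher in Fit2-Mut as a sum, at 9535 CPM against 7869 CPM, a ratio of 1.21 (1.20 to 1.23), and Clu was at 1198 against 1113 CPM, a ratio of 1.08 (1.04 to 1.12). In sums within clusters the order was mostly the other way. Of the 5 astrocyte-like clusters, 4 had an Apoe ratio below 1 and 3 had a Clu ratio below 1. Leaving out the highest cells moved several of these ratios, as given below for each cluster. The cluster led by Agt and Itih3 carried most of both genes, with 69.7% and 70.3% of the class's Apoe UMIs and 72.6% and 78.4% of its Clu UMIs. The class leaves out the unnamed Crym-led cluster. With that cluster added, the Apoe ratio was nearer 1 and the Clu ratio was below 1, as given with the alternatives below.

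**Figure D4:**
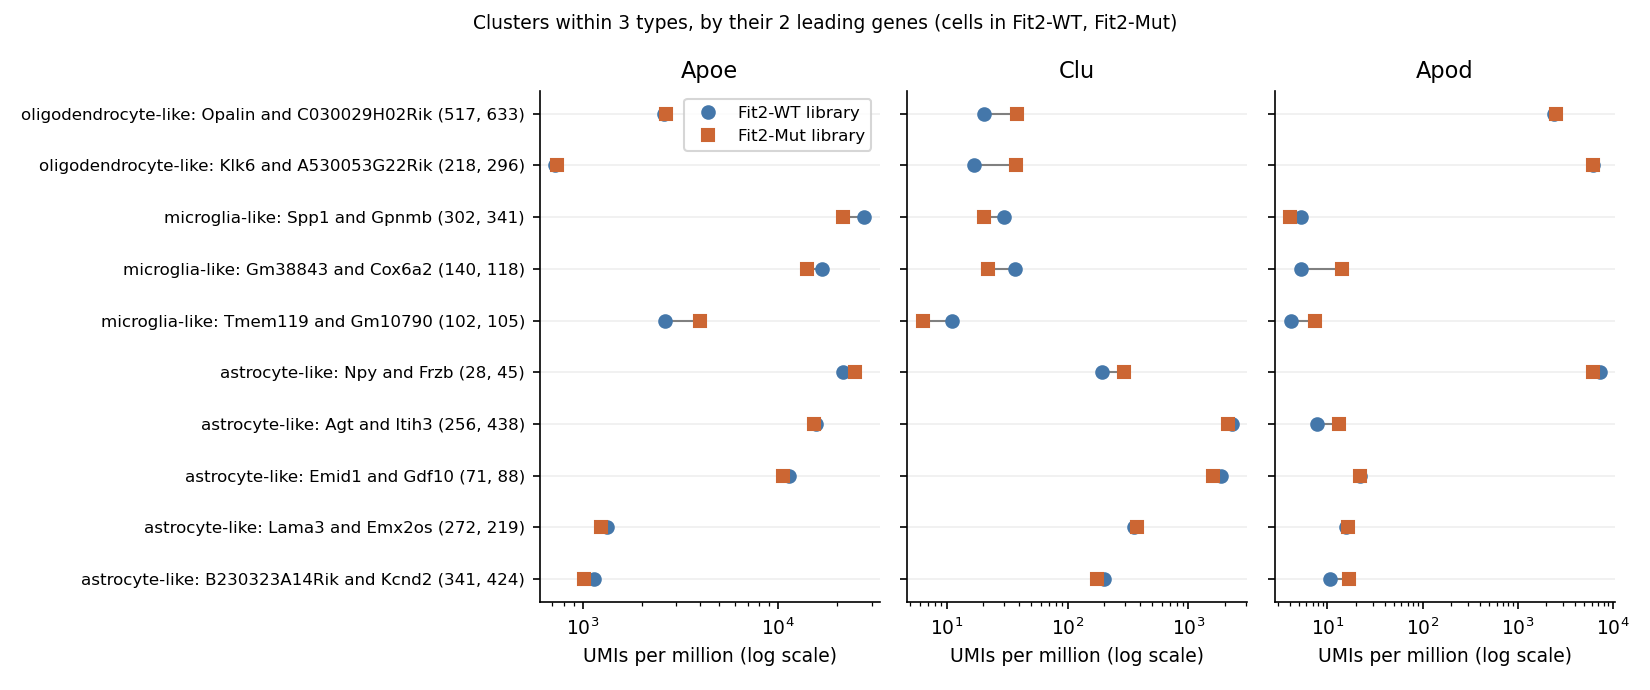
Levels of the 3 apolipoproteins (CPM, log axis) in the 10 clusters of oligodendrocyte-like, microglia-like and astrocyte-like cells, for both libraries. Apoe in microglia-like and astrocyte-like cells differs more between clusters than between libraries: astrocyte-like Apoe runs from 1147 to 21486 CPM in Fit2-WT and from 1009 to 24735 in Fit2-Mut. Both upper ends are the small cluster led by Npy and Frzb, whose place in the class is uncertain. Without its 10 highest cells per library it had 7718 CPM in Fit2-WT and 13550.5 CPM in Fit2-Mut. The next highest, the Agt-led cluster, is at 15525 CPM in Fit2-WT and 15237 CPM in Fit2-Mut.

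The Agt-led cluster had 15525 CPM of Apoe in Fit2-WT and 15237 CPM in Fit2-Mut (ratio 0.982), and 2289 and 2134 CPM of Clu (ratio 0.932). Without the 10 cells per library with the most UMIs of the gene, these ratios were 1.002 (0.985 to 1.018) and 0.944 (0.903 to 0.986). The cluster made up 26.5% of astrocyte-like cells in Fit2-WT (256 cells) and 36.1% in Fit2-Mut (438 cells). Low in both genes were the cluster led by B230323A14Rik and Kcnd2 (341 and 424 cells), with Apoe at 1147 and 1009 CPM and Clu at 202 and 176 CPM, and the cluster led by Lama3 and Emx2os (272 and 219 cells), with Apoe at 1336 and 1235 CPM and Clu at 357 and 378 CPM. By the same step without the highest cells, their Apoe ratios were 0.936 (0.856 to 1.023) and 0.786 (0.711 to 0.869). Apoe and Clu were thus high together in the Agt-led cluster and low together in these 2. The 2 low clusters met 6 of 8 and 4 of 8 astrocyte markers, against 8 of 8 in the Agt-led cluster. They were also shallower, at medians of 3220 and 3838 UMIs per cell against 5932. The part of these differences in their Apoe and Clu was not tested.

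The remaining astrocyte-like clusters were small. The cluster led by Emid1 and Gdf10 (71 and 88 cells) had Apoe at 11384 and 10621 CPM and Clu at 1844 and 1587 CPM, both lower in Fit2-Mut as sums. Without the 10 highest cells per library the ratios were 0.982 (0.934 to 1.033) and 0.994 (0.871 to 1.135), intervals that include 1. With each cluster given the same weight in both libraries, the class had 8888 CPM of Apoe in Fit2-WT and 8815 CPM in Fit2-Mut, a ratio of 0.992. Clu was then 1215 and 1133 CPM, a ratio of 0.932. The higher sums in Fit2-Mut were therefore not present at equal cluster weights, a comparison added after seeing the data.

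A cluster led by Npy and Frzb, of 28 cells in Fit2-WT and 45 in Fit2-Mut, differed from the other 4 most clearly in Apod. It met only 4 of 8 astrocyte markers, and none of the markers was among its 10 leading genes, which include Foxd3, Fabp7 and Prss56, so its place in the class is uncertain. As sums it had the highest Apoe of the class, at 21486 and 24735 CPM, low Clu, at 191 and 295 CPM, and Apod at 7261 and 6201 CPM. Few cells made its Apoe level. Without its 10 highest cells per library it had 7718 and 13550.5 CPM of Apoe, a ratio of 1.756. By that step the Agt-led cluster was above it, at 14825 and 14851 CPM. The other 4 clusters had between 7.76 and 22.2 CPM of Apod. The Npy-led cluster held 1176 of the 1226 Apod UMIs of astrocyte-like cells in Fit2-WT and 2358 of 2451 in Fit2-Mut, so this 1 small cluster carried nearly all Apod of the class. The Apod ratio was 1.37 (Fit2-Mut over Fit2-WT) in the class and 0.854 within the cluster. Without it the class had 11.9 and 15.4 CPM of Apod, a ratio of 1.30 (0.914 to 1.87) from too few UMIs for the comparison with all genes, so the Apod pair counted above as past 25% higher rests on this cluster. The class ratios without it were 1.17 for Apoe and 1.09 for Clu. In that cluster 5 cells held 59.4% and 40.5% of the Apod UMIs, and without the 10 highest cells its Apod ratio was 1.46. C1qa, a microglial complement gene, was at 12.4 and 405 CPM and Trem2 at 0 and 268 CPM there, and their part in its Apoe was not tested.

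Microglial transcripts were also higher in the Fit2-Mut astrocyte-like cells as a class. Of 13 disease-associated microglia genes with at least 20 UMIs there, 9 were at least 25% higher in Fit2-Mut (median log2 ratio 0.44), as were 6 of 9 homeostatic genes (median 0.60), beside a median of 0.02 over all genes. Of all genes with at least 20 UMIs in astrocyte-like cells, 14.7% were higher by as much and 10.4% lower by at least 20%. Trem2 was at 8.22 and 26.9 CPM and Cst7 at 5.25 and 19.98 CPM. Their part in the astrocyte-like Apoe sum was not tested. Reactive astrocyte genes were 1 higher and 2 lower of 8 (median 0.07). The higher gene was Serpina3n, at 6.85 and 12.6 CPM (30 and 81 UMIs). The intermediate filament gene Gfap was at 17.1 and 11.4 CPM (75 and 73 UMIs), Vim at 78.5 and 82.6 CPM and the complement gene C4b at 35.2 and 37.3 CPM. In the unnamed Crym-led cluster Gfap had the other direction, with 86 and 246 UMIs and a ratio of 2.175 (1.695 to 2.814).

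Pathway genes in astrocyte-like cells were mixed: the most abundant stayed inside the limits, and some rarer ones lay past them. Abca1 was at 265 and 227 CPM, Lrp1 at 300 and 295 CPM, and the sterol regulators Srebf1 at 134 and 132 CPM and Srebf2 at 109 and 108 CPM. Of 8 lipid loading genes 2 were higher and 1 lower (median 0.02), of 12 receptor genes 2 higher and 0 lower (median -0.06; Trem2, above, and Scarb1 at 14.2 and 20.1 CPM), and of 9 regulator genes 2 higher and 0 lower (median 0.24). Other genes with apolipoprotein names were 2 higher and 0 lower of 3 (median 0.36), with Apoc1 at 18.04 and 27.2 CPM and Apool at 16.4 and 21.1 CPM. Genes beside Apoe were 2 higher and 2 lower of 6 (median -0.05). With so few members per list, these are counts and nothing more.

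The unnamed Crym-led cluster kept the direction that most astrocyte-like clusters had as sums. Apoe was 16665 CPM in Fit2-WT and 15082 CPM in Fit2-Mut, a ratio of 0.905, and Clu was 3915 and 3659 CPM, a ratio of 0.935. Apod was at 5.49 and 7.52 CPM there, from 10 and 18 UMIs. It was thus high in Apoe and Clu and near 0 in Apod.

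In ependymal-like cells Apoe was 6080 CPM in Fit2-WT and 7454 CPM in Fit2-Mut, a ratio of 1.23 (1.19 to 1.26), and the median cell had 4378 and 6313 CPM. Clu there was 2666 and 2844 CPM, a ratio of 1.07. Beside this, 9 of 10 genes of the dissociation response list were at least 20% lower in Fit2-Mut in these cells (median log2 ratio -1.20, all genes 0.01), with Fos at 401 and 143 CPM and Jun at 511 and 255 CPM. Of all genes with at least 20 UMIs there, 17.4% were as much lower. Their part in the Apoe ratio was not tested.

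Choroid plexus-like cells had the most UMIs of any class. Clu there was 1514 and 1515 CPM, a ratio of 1.001 (0.984 to 1.02), and Apoe 2706 and 2846 CPM, a ratio of 1.05. Their 2 clusters repeated this for Clu, at 1761 and 1752 CPM in the cluster led by Ttr and Steap1 and 1205 and 1190 CPM in the cluster led by Nefh and Vat1l. Clu was therefore higher in the Ttr-led cluster in both libraries.

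Oligodendrocyte-like cells had equal Apoe in both libraries, at 1794 CPM each and a ratio of 1 (0.978 to 1.02), and Apod at a ratio of 1.03 (1.02 to 1.05). Their 2 clusters ran opposite for the 2 genes. The cluster led by Klk6 and A530053G22Rik (218 and 296 cells) had Apod at 6228 and 6163 CPM and Apoe at 722 and 734 CPM. In the cluster led by Opalin and C030029H02Rik (517 and 633 cells) Apod was at 2391 and 2550 CPM and Apoe at 2616 and 2675 CPM. The order of the clusters was the same in both libraries, with Apod higher in the Klk6-led and Apoe higher in the Opalin-led cells.

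Clu in oligodendrocyte-like cells had the largest ratio among the pairs with at least 500 UMIs, 2.02 (1.66 to 2.47), from 137 UMIs for Fit2-WT and 390 for Fit2-Mut. Its levels of 18.8 and 37.9 CPM lay within what free RNA could give, as above. Ttr, the choroid plexus transcript, was at 0.0172 of its free RNA level in these cells in Fit2-WT and 0.0593 in Fit2-Mut, and 5 cells held 26.3% and 39.5% of the Clu UMIs. The part of free RNA in this ratio was not tested.

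Around Apod, the genes of disease-associated oligodendrocytes were 3 higher and 1 lower of 8 (median log2 ratio 0.05, all genes 0.01), where 11.1% of all genes with at least 20 UMIs were higher by 25% and 8.01% lower by 20%. The complement gene C4b was at 138 and 149 CPM, the alarmin Il33 at 1012 and 923 CPM, the histocompatibility gene H2-D1 at 78.6 and 111 CPM, and its partner B2m at 48.1 and 73.6 CPM. Of 6 lipid loading genes there 1 was higher and 1 lower, and of 10 receptor genes 1 higher and 0 lower. Apod itself ranked 16 among the genes of these cells in Fit2-WT and 15 in Fit2-Mut.

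Apod in fibroblast-like cells was lower in Fit2-Mut, at 2500 UMIs (4945 CPM) in 59 Fit2-WT cells and 1327 UMIs (1654 CPM) in 81 Fit2-Mut cells, a ratio of 0.335 (0.313 to 0.358). Few cells made this level: 5 of them held 57.2% and 56.7% of the UMIs, and the median cell had 529 and 314 CPM. Without the 5 highest cells the levels were 2370 and 754 CPM, and without the 10 highest the ratio was 0.357. The class also differed in makeup, as a split made after seeing the data shows. A part led by Lum and Dcn, of 22 Fit2-WT and 16 Fit2-Mut cells, held 2395 and 1056 of the Apod UMIs, at 14469 and 8706 CPM, a ratio of 0.602 (0.559 to 0.647). In the part led by Ccn3 and Prg4, of 37 and 65 cells, Apod was at 309 and 398 CPM, a ratio of 1.29 (1.02 to 1.63). Most Apod of the class thus lay in the Lum-led part, and nearly all of it in Fit2-WT. That part made up a smaller share of the class in Fit2-Mut than in Fit2-WT. Apoe in these cells was 2542 and 1547 CPM, a ratio of 0.609, but 4180 and 5894 CPM in the Lum-led part (ratio 1.41) and 1744 and 772 CPM in the Ccn3-led part (ratio 0.443). The class has too few cells for the comparison with all genes.

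Vessel cells held a small, separate source of Clu. Endothelial-like cells (431 and 342) had 149 and 156 CPM of Clu, a ratio of 1.05, but a cluster of 22 and 16 cells led by Cytl1 and Gkn3 had 1682 and 1876 CPM against 50.7 and 50.1 CPM in the cluster led by Cxcl12 and Adgrl4. The small cluster also expressed Eln and Bmx, genes known from arterial endothelium, and held 187 of 275 Clu UMIs in Fit2-WT and 168 of 241 in Fit2-Mut. Apoe was at a ratio of 1.03 in endothelial-like cells and Apod at 0.944. Clu was therefore concentrated in the same few cells in both libraries.

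Apoe in T cell-like cells had 107 UMIs (124 CPM) in Fit2-WT and 251 UMIs (292 CPM) in Fit2-Mut, a ratio of 2.35 (1.87 to 2.98). In Fit2-Mut 5 cells held 53.4% of these UMIs, against 30.8% in Fit2-WT, and without them the levels were 88.3 and 140 CPM. C1qa was at 0.195 and 0.247 of its free RNA level in these cells. Its part in the ratio was not tested.

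Free RNA differed between libraries most for Apod. Its level there was 600 CPM in Fit2-WT and 901 CPM in Fit2-Mut, a ratio of 1.501 (1.42 to 1.58), while Apoe stood at 1.10 (1.08 to 1.12) and Clu at 1.05 (1.001 to 1.11). Ttr was at 47509 and 46022 CPM in free RNA. Oligodendrocyte-like cells contributed 16.9% of the UMIs in cells of Fit2-WT and 19.6% of those in Fit2-Mut. Apod was thus higher in Fit2-Mut outside cells, while inside oligodendrocyte-like cells it differed by a ratio of 1.03.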

How the data were processed

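The deposited values are raw UMI counts for each barcode and gene, per the file headers; 10x Genomics 3' v3.1 chemistry was used per the labels. The submitters' processing notes name Cell Ranger 7.0.0 and mm10, and the file headers Cell Ranger 7.1.0. Barcodes with at least 1000 UMIs, 500 genes and at most 10% mitochondrial UMIs (5333 and 5979) were kept, and doublets called by Scrublet were removed. Cells were clustered with scanpy 1.11.5 and leidenalg 0.10.2 (Python 3.11.15; 2000 variable genes, 30 components, resolution 1) without Apoe, Clu and Apod, and named from at least 3 detected markers. UMIs were summed per type and library; totals in cells were 43162123 and 52475871. Free RNA came from 75833 and 76390 barcodes of 10 to 100 UMIs. Intervals are exact Poisson, conditional or Clopper-Pearson; no p-value was computed. Genes were named by rule: the 3 most abundant of each list, those past 1.5-fold with at least 100 UMIs, the 5 most correlated with each member, and free RNA genes; others were chosen after their values were seen, and some genes the rule names are not reported here. Members and lists were chosen with earlier results of these data known. On simulated counts for microglia-like cells (3496 genes), 100 of 100 2.0-fold and 99.0% of 1.5-fold changes passed the limits of 25% higher or 20% lower, as did 0.212% of unchanged genes. The simulation held counting error only, with no spread between animals, cells or cluster make-up. The 0.212% is therefore not a rate of false calls for these libraries, where 4.15% of genes in microglia-like cells were past the limits. Alternatives included edgeR 4.0.16 and DESeq2 1.42.0 scaling (R 4.3.3).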

Additional observations from a re-analysis of the deposited data

Results flagged for a closer look

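The Apoe ratio of Fit2-Mut over Fit2-WT went in opposite directions in 2 microglia-like clusters of the same libraries. It was 0.775 in the Spp1-led cluster and 1.51 in the Tmem119-led cluster. The difference between these ratios was not tested, since there is 1 library per genotype. Without the 10 cells per library with the most Apoe UMIs the ratios were 0.769 and 1.09. The median cell of the Tmem119-led cluster had an Apoe level of 297 CPM for Fit2-WT and 303 CPM for Fit2-Mut.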

How the results depend on the processing

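No paired analysis was possible because each genotype has 1 library and the labels give no replicate numbers. Over 19 ratios, 227 values under alternatives were computed, of which 156 stayed within the counting interval of the reported value, 68 moved beyond it and 3 crossed 1 from a reported value at least 25% higher or 20% lower. Those 3 were Apod in astrocyte-like cells at equal cluster weights (0.869, from 1.37) and Clu in microglia-like cells with doublets kept (1.13, from 0.664) and with types set by marker share (1.10). Ratios reported nearer 1 also crossed it under some alternatives, among them Apoe and Clu in astrocyte-like cells, all 3 genes in endothelial-like cells and Apod and Clu in choroid plexus-like cells. Alternatives that left clusters out, added one or weighted clusters equally were chosen after seeing the data.

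Apoe in microglia-like cells (0.801) stayed below 1 in 13 of 13 alternatives. It was 0.754 at 500 UMIs and 250 genes, 0.790 with doublets kept, 0.770 with TMM, 0.772 with DESeq2, 0.840 thinned, 0.835 with cells weighted equally, 0.776 by marker share, 0.809 at resolution 2, 0.812 with free RNA subtracted, 0.786 without the Gm38843-led cluster and 0.792 at equal cluster weights. Apoe in astrocyte-like cells (1.21) was 1.27 thinned, 1.24 with cells weighted equally, 1.02 by marker share, 1.17 without the Npy-led cluster, 1.06 with the Crym-led cluster and 0.992 at equal cluster weights. Clu there (1.08) was 1.13 thinned, 1.15 with cells weighted equally, 1.02 by marker share, 0.965 with the Crym-led cluster and 0.932 at equal cluster weights. Apod in oligodendrocyte-like cells (1.03) was 1.06 thinned, 1.09 with cells weighted equally, 1.05 without the 10 highest cells and 1.01 at equal cluster weights. The causes of these shifts were not tested.

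Wide ranges were seen for 3 ratios past the limits. Apoe in T cell-like cells ran from 1.18 with doublets kept to 5.57 at 500 UMIs, Clu in oligodendrocyte-like cells from 1.46 with cells weighted equally to 3.17 thinned, and Apod in astrocyte-like cells from 0.869 up to 2.81 without the 10 highest cells. Clu in microglia-like cells gave no ratio with free RNA subtracted. Read from barcodes with 100 to 300 UMIs, Apod in oligodendrocyte-like cells was 9.53 times free RNA in Fit2-WT (6.76 as reported, 6.40 at 10 to 50 UMIs) and 7.002 times in Fit2-Mut (from 4.65), and Apoe in microglia-like cells 3.57 times (from 4.09) and 2.67 times (from 2.98). Genes past the fold numbered 76 in choroid plexus-like cells (790 at 100 UMIs, 10 past 1.5-fold), 268 in astrocyte-like (1483, 13), 88 in oligodendrocyte-like (773, 8), 145 in microglia-like (1068, 14), 44 in endothelial-like (860, 8), 73 in ependymal-like (973, 8) and 32 in T cell-like cells (566, 6), and 61 in the Crym-led cluster (949, 10). Lower counts of UMIs per gene widen the spread of ratios by construction.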

Other observations

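Cells in 3 further clusters stayed without a name and entered no ratio. A cluster with 6 of 6 B cell and 7 of 8 microglia markers had 11554 CPM of Apoe in Fit2-WT, where 5 cells held 98.1% of them, and 11334 in Fit2-Mut, where 5 cells held 54.7%. A cluster with 7 of 7 T cell and 8 of 8 microglia markers had 20136 CPM of Apoe in only 12 Fit2-WT cells and 13993 CPM in 42 Fit2-Mut cells. A shallow cluster with a median of 1659 UMIs had 2170 and 2863 CPM.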
